A study of Mus musculus with 6 samples.

Results

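This account follows 49 of the 22298 genes in the mRNA table, the RNA methyltransferase genes outside the METTL3-METTL14 core. They were chosen by name: every symbol that starts with Trmt, or with Mettl or Nsun followed by a number, plus Pcif1 and Zcchc4, without Mettl3 and Mettl14. The rule uses names and no measured value. The RNA came from GC-1spg, an immortalised line derived from mouse type B spermatogonia and grown in DMEM with 10% FBS. In 1 group (si-NC) the cells received a control siRNA, and in the other (si-METTL3) an siRNA against Mettl3. Transfection was at 60% density and collection 48 h later, with 3 libraries in each group. The labels give a single siRNA sequence for both groups, so the control sequence is not known here. No library of untransfected cells is among them. They do not say whether replicates were separate cultures, so p-values measure the spread between these libraries, which may be technical.

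RNA methyltransferases transfer a methyl group from S-adenosylmethionine to a base or a ribose of RNA. METTL3, with METTL14, writes most N6-methyladenosine (m6A) of messenger RNA. METTL16 writes m6A on a spliceosomal RNA and on the messenger of the S-adenosylmethionine synthetase MAT2A, METTL5 and ZCCHC4 write it on ribosomal RNA, and PCIF1 writes the related m6Am next to the cap. The NSUN enzymes make 5-methylcytosine, the TRMT enzymes and several METTL proteins methylate transfer RNA, and TRMT112 is a small partner protein that several of these enzymes need. The shared name does not make a shared substrate: METTL9, METTL18, METTL21A, METTL22 and METTL23 methylate proteins, and METTL7A1 and METTL7B belong to a branch that methylates small thiols.

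That last point bears on the label. Of the 49 members, 33 have a known RNA substrate or act as partner of an enzyme that does, and 16 do not. The deposited gene annotation gives an RNA methyltransferase activity to 28. Results below are therefore given by role.

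The siRNA sequence is shown first because it ties the treatment to its target and can be compared with the members. It is written 5′ to 3′ in the sense direction, and capitals mark the 7 letters that would pair with bases 2 to 8 of the other strand.
siRNA: gctaccgtatgGGACATTa
All 19 letters were found in Mettl3. The longest exact run in any transcript of any member was 10 letters, in Trmt6 (ATGGGACATT) and Nsun3 (CTACCGTATG). The 7 letters in capitals occurred in the longest coding transcript of 7 of the 41 members tested below (17.1%), against 23.9% of all tested genes that have such a transcript. These were Mettl4, Mettl23, Mettl7a1, Mettl8, Nsun5, Trmt6 and Zcchc4. A match is a description of letters only.

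Mettl3, the targeted gene, was lower in the si-METTL3 libraries. Its counts were 606, 578 and 683 in si-NC against 142, 134 and 136 in si-METTL3. The log2 fold change was -1.79 ± 0.14 (SE), with an adjusted p of 0.000579 (edgeR quasi-likelihood test, Benjamini-Hochberg). The mRNA table summed to between 22146057 and 37698956 counts per library. Levels are given as CPM, counts scaled to the library total, and summed over lists of markers. Of 8 germ line identity markers 3 (Mael, Dppa3 and Tex101) were at 0 in every library and 4 others held at most 7 counts in a library. The remaining one, Piwil2, carried most of a sum of 4.40 to 5.16 CPM in si-NC and 2.83 to 3.18 in si-METTL3, with 158, 138 and 162 counts against 94, 59 and 62, and was called lower. The 16 undifferentiated spermatogonia markers summed to 186 to 189 CPM in si-NC and 241 to 259 in si-METTL3. Of the 10 tested, 3 were called higher (Bcl6b, Gfra1 and Itga6) and 0 lower, and Pou5f1, Sall4 and Nanos2 were at 0. Itga6 held the most counts of the 16 in every library, 3807, 3350 and 3787 in si-NC against 5159, 3376 and 4254 in si-METTL3 (unscaled). Etv5 held 924, 621 and 887 counts against 611, 365 and 438, and was not called. The sum therefore follows Itga6 more than the set as a whole. Of the 6 differentiating spermatogonia markers only 2 had enough counts to be tested. None of these was called, and Sohlh1 was at 0 (edgeR, all genes). Summed Sertoli cell markers (8 genes, none at 0) ran from 293 to 325 CPM in si-NC and from 539 to 581 in si-METTL3, with Clu, Trf and Wt1 called higher and Gata4 lower. The highest sum was that of 8 fibroblast and mesenchyme markers, 2705 to 2958 CPM in si-NC and 2718 to 2805 in si-METTL3. Of these, Pdgfra was called higher and Col3a1 and Vim lower.

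The control libraries also differed among themselves. In si-NC 3, 15 lung epithelium markers, none at 0 in all libraries, were higher than in the other controls. Their summed CPM was 10.1, 9.40 and 72.5 in si-NC 1 to 3 and 111, 109 and 74.2 in si-METTL3 1 to 3. The 6 blood markers in the table moved with them (0.616, 0.876 and 11.9, then 19.2, 16.1 and 12.5), as did 8 macrophage markers (5.24, 5.73 and 19.1, then 27.7, 29.2 and 20.96). In si-NC 1, 4 of 10 brain markers were at 0 that every other library held, such as Camk2a (0 counts, against 83 and 74 in the other controls and 150, 107 and 105 in si-METTL3). Fits with si-NC 3 as the only control, and fits without each library, are given beside the calls they changed. What part these reads had in other results was not tested.

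The level of each member, per transcript length, is given by the deposited FPKM, and single libraries ran from 0 to 129 FPKM. Nsun2, the main 5-methylcytosine writer of transfer RNA, stood highest, at 128, 116 and 129 FPKM in si-NC against 122, 116 and 119 in si-METTL3. Trmt112, the partner protein, followed at 107, 96.9 and 117 FPKM in si-NC against 92.6, 98.3 and 90.2 in si-METTL3. The ranges of these 2 genes overlapped each other, though Nsun2 was the higher in each of the 6 libraries. Neither range overlapped that of any other member.

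Mettl16 came next (48.9 to 60.2 FPKM over the 6 libraries), then Trmt1 (39.3 to 56.2) and Trmt6 (37.8 to 48.2). The ranges of these 3 overlapped in turn, though every single library held them in that order. Below Trmt6 lay a gap, under which Mettl2 led at 22.4 to 32.6 FPKM. The order then ran from Mettl2 down to Mettl15, a mitochondrial ribosomal RNA enzyme at 0.90 to 1.67 FPKM. Each of these 35 members overlapped the next, so that neighbours are not separated by their ranges. Mettl7b closed the tested members at 0.21 to 0.45 FPKM.

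Among the m6A and m6Am writers the order was Mettl16, Zcchc4 (mean 14.0 FPKM), Mettl4 (4.56), Pcif1 (4.39) and Mettl5 (3.96), with only the last 3 overlapping. Trmt2a, which makes 5-methyluridine in transfer RNA, was at 22.7 FPKM on average (22.0 to 23.6). Mettl9, a protein histidine methyltransferase, averaged 19.4 FPKM, and Mettl26, whose substrate is not settled here, 16.2. For 8 members there were too few counts to be tested. Over all 6 libraries together they held 39 (Trmt9b), 19 (Mettl24), 5 (Mettl7a3), 4 (Mettl7a2), 4 (Mettl21c), 4 (Nsun7), 1 (Mettl21e) and 0 counts (Mettl11b).

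**Figure D1:**
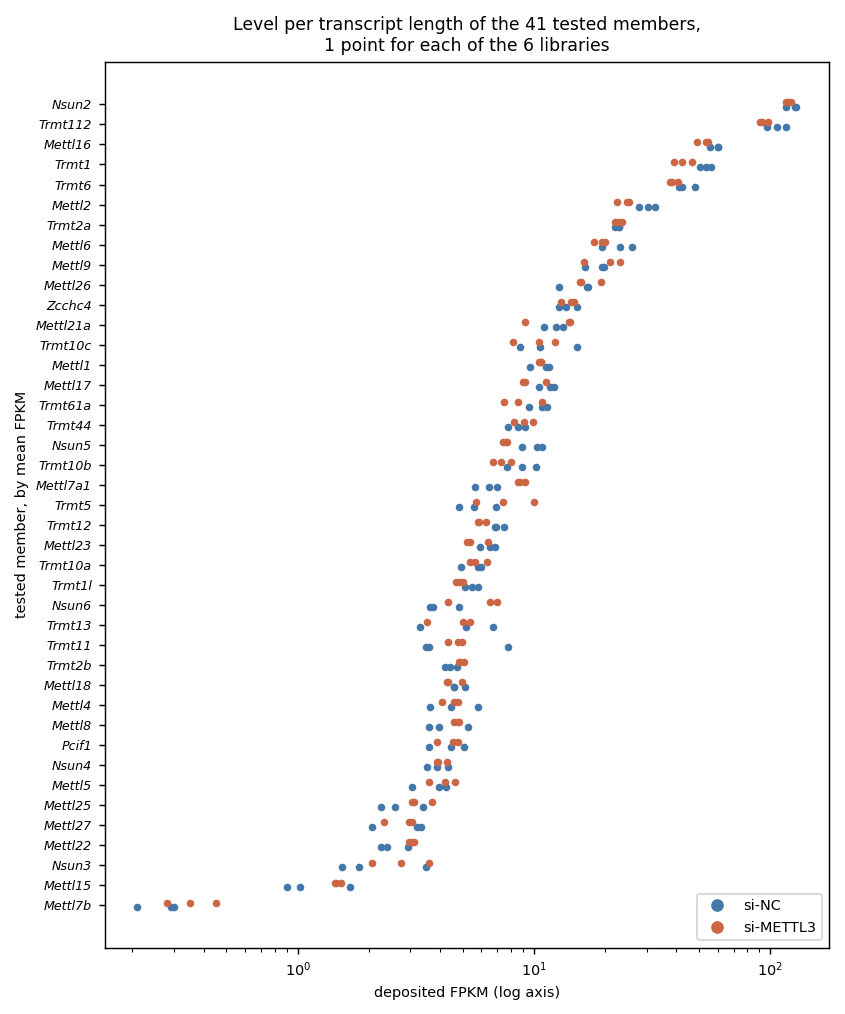
Deposited FPKM (x, log axis) of the 41 tested members (y, ordered by mean), 1 point per library, si-NC in blue and si-METTL3 in orange. Nsun2 and Trmt112 stand apart at 90.2 to 129 FPKM, Mettl16, Trmt1 and Trmt6 form a second step, and the rest run on without a gap until Mettl7b.

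Few members passed the test between the groups. In bulk RNA, fewer cells of a kind and less RNA per cell cannot be told apart. Of the 41 tested, 3 were lower in si-METTL3 (Trmt61a, Nsun5 and Trmt1) and 1 was higher (Mettl7a1). These 4 are 9.76% of the members, against 18.9% of the 13082 genes tested (10.2% lower, 8.67% higher), so the share was below the background. At an unadjusted edgeR p under 0.05 there were 10 of the 41 members, 9 lower and 1 higher. Of all 13082 genes tested there were 4670 (35.7%), 2455 lower and 2215 higher. The median log2 fold change of the members was -0.007 with 21 below 0 and 20 above, and that of all tested genes was 0.03. Every member lay between -0.45 and 0.46. The authors' deposited table also lists 4 of the 49 members at an adjusted p under 0.05, with values of 0.00651 for Trmt1, 0.00723 for Trmt61a, 0.0146 for Nsun5 and 0.0122 for Mettl7a1.

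**Figure D2:**
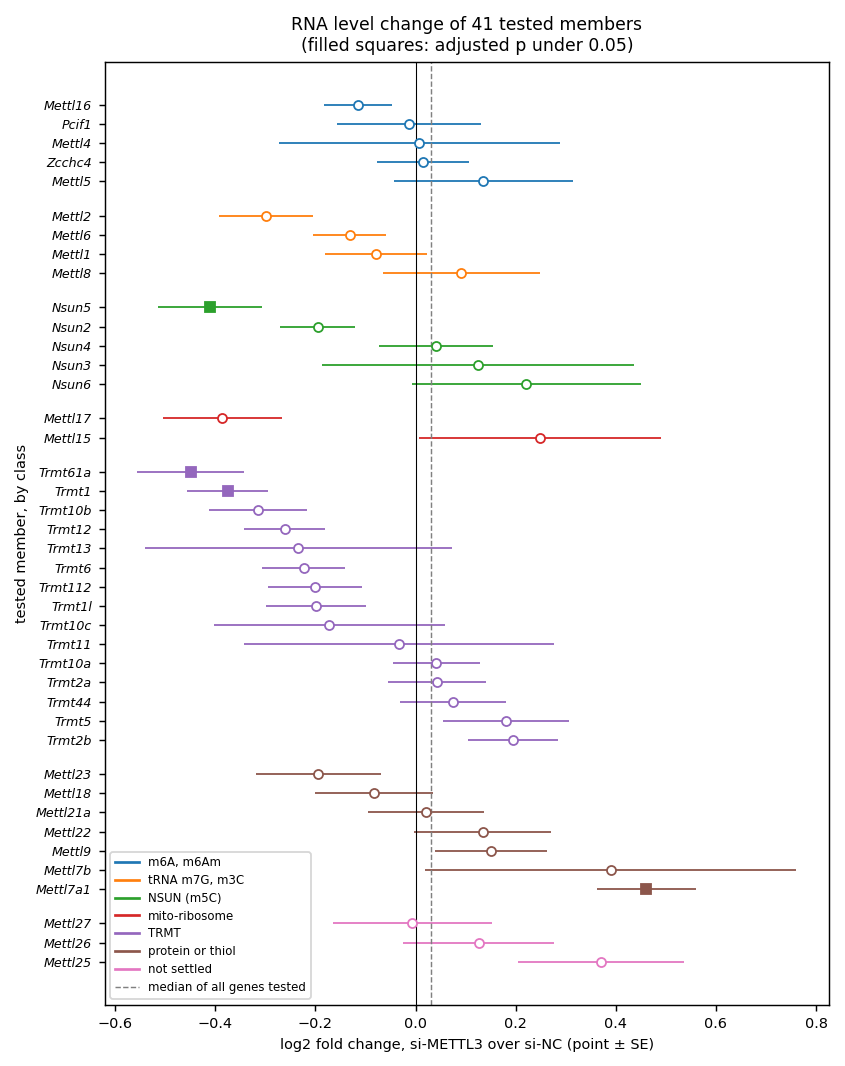
Log2 fold change of si-METTL3 over si-NC with its SE (x) for each tested member (y), coloured by role, with filled squares for an adjusted p under 0.05. The 4 filled squares are Trmt61a, Trmt1, Nsun5 and Mettl7a1, and no member lies beyond -0.45 or 0.46.

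The transfer RNA methyltransferases of the TRMT group, 15 of 16 with enough counts, had a median log2 fold change of -0.20. They held 2 of the 4 calls, both lower, or 13.3% against 18.9% of all tested genes. Trmt61a, on chromosome 12 (111678105 to 111683902, plus strand, GRCm38), is the catalytic subunit of the enzyme that makes N1-methyladenosine (m1A) in transfer RNA. Its CPM was 32.4, 27.9 and 32.3 in si-NC against 21.6, 21.4 and 24.8 in si-METTL3. Every control library was above every knockdown library. Its log2 fold change was -0.45 ± 0.11 (SE, edgeR adjusted p = 0.0289), a fall of 26.7%. On the deposited FPKM it did not pass the test (log2 difference -0.23, limma adjusted p = 0.279 on log2(FPKM + 1)). With si-NC 3 as the only control the log2 fold change was -0.52 (edgeR adjusted p = 0.0558).

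Trmt1, on chromosome 8 (84686307 to 84699808, plus strand), makes dimethylguanosine in transfer RNA. It was at 125, 114 and 131 CPM in si-NC against 101, 94.3 and 90.3 CPM in si-METTL3, again with no overlap. It fell by 0.38 ± 0.08 on the log2 scale (SE, edgeR adjusted p = 0.0221). Trmt6, the non-catalytic partner of TRMT61A, was at 153, 131 and 135 CPM in si-NC against 125, 114 and 120 CPM in si-METTL3. The groups did not overlap, but its log2 fold change of -0.22 ± 0.08 did not pass (edgeR adjusted p = 0.101).

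Trmt112 overlapped between the groups (125, 111 and 138 CPM in si-NC, then 106, 114 and 106) and had a log2 fold change of -0.20 (edgeR adjusted p = 0.173). Over the 9 alternatives that did not leave out 1 library it ran from -0.35, with si-NC 3 as the only control, to -0.042. Trmt10b, an N1-methyltransferase of transfer RNA, and Trmt12, an enzyme of wybutosine synthesis, were close to the threshold. Their log2 fold changes were -0.31 (edgeR adjusted p = 0.0651) and -0.26 (0.0643), each without overlap. Trmt1l, a relative of Trmt1, was at -0.20 (0.198). In the other direction Trmt2b, which makes 5-methyluridine in mitochondria, was at 0.19 (0.168) without overlap. The remaining TRMT genes, Trmt10a, Trmt10c, Trmt11, Trmt13, Trmt2a, Trmt44 and Trmt5, lay between -0.23 and 0.18.

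In the NSUN family 5 of 6 genes were tested and 1 was called, 20.0% against 18.9% of all tested genes. Nsun5, on chromosome 5 (135369953 to 135376805, plus strand), makes 5-methylcytosine in the large-subunit ribosomal RNA. Its CPM was 26.1, 23.6 and 28.7 in si-NC against 18.6, 20.1 and 20.3 in si-METTL3. The groups did not overlap, and it fell by 0.41 ± 0.10 on the log2 scale (SE, edgeR adjusted p = 0.0344). Its exons overlap those of Pom121 on the opposite strand, and no source used here says whether counting used strand. The same limit holds for other members, among them Nsun2, Trmt112, Mettl5, Mettl6, Trmt2a and Pcif1. Mettl7b, with 82 counts in all, overlaps Itga7, with 21208, on the opposite strand.

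Nsun2 was at 420, 368 and 414 CPM in si-NC against 364, 338 and 348 CPM in si-METTL3. The groups lay next to each other without overlap, and the log2 fold change of -0.20 ± 0.07 did not pass (edgeR adjusted p = 0.110). Nsun4, a mitochondrial ribosomal RNA enzyme, was at 0.04, and Nsun3 and Nsun6, which act on transfer RNA, were at 0.12 and 0.22, with none of the 3 called.

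No m6A or m6Am writer outside the core passed the test. Mettl16 was at 212, 192 and 202 CPM in si-NC against 192, 178 and 190 CPM in si-METTL3, the only one of the 5 without overlap, by less than 1 CPM. Its log2 fold change was -0.12 ± 0.07 (SE, edgeR adjusted p = 0.266). Mettl5 was at 0.14 ± 0.18 (edgeR adjusted p = 0.615), Zcchc4 at 0.01 ± 0.09 (0.924), Mettl4 at 0.01 ± 0.28 (0.988) and Pcif1 at -0.01 ± 0.14 (0.959). In counts simulated from these libraries (13082 genes) the test recovered 10% of 1.5-fold and 62% of 2-fold changes. The simulation changed 50 genes at each fold, and 2468 genes were called in the data. These shares therefore need not apply to the test used here. A missed threshold does not show an unchanged level.

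The METTL enzymes of transfer RNA make 7-methylguanosine (Mettl1) or 3-methylcytidine (Mettl2, Mettl6 and Mettl8). None was called, with a median of -0.11. Mettl2 was at 69.7, 62.1 and 74.8 CPM in si-NC against 58.6, 52.2 and 57.0 CPM in si-METTL3. It did not overlap, and its log2 fold change of -0.30 ± 0.09 missed the threshold (edgeR adjusted p = 0.0664). On the deposited FPKM it passed (log2 difference -0.31, limma adjusted p = 0.0404 on log2(FPKM + 1)). It missed the threshold with DESeq2 (adjusted p = 0.0576) and with the length correction (edgeR adjusted p = 0.0843). With si-NC 3 as the only control the log2 fold change was -0.42. Mettl6 (-0.13) did not overlap either, while Mettl1 (-0.08) and Mettl8 (0.09) did. Of the pair that serves the mitochondrial ribosome, Mettl17, an assembly factor, was at 22.3, 19.0 and 22.0 CPM in si-NC against 16.5, 17.6 and 14.3 CPM in si-METTL3. Its log2 fold change was -0.39 ± 0.12 (edgeR adjusted p = 0.0614), without overlap. Mettl15 was at 2.14, 1.86 and 3.21 CPM in si-NC and at 2.72, 3.03 and 2.84 in si-METTL3, within the range of the controls, with a log2 fold change of 0.25 ± 0.24 (0.492).

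Mettl7a1 was the single member called higher, and it is not an RNA enzyme by its known activity. It lies on chromosome 15 (100304140 to 100328662, plus strand). Its CPM was 12.1, 12.3 and 14.1 in si-NC against 17.6, 17.9 and 17.6 in si-METTL3. The si-METTL3 libraries were within 1 CPM of each other and above all controls. The log2 fold change was 0.46 ± 0.10 (SE, edgeR adjusted p = 0.0220). Mettl7a2 and Mettl7a3 are close copies of it in the same gene cluster and hold 4 and 5 counts in all, and how reads shared by copies were divided is not given. The highest control was si-NC 3, the library with lung markers. With si-NC 3 as the only control the log2 fold change was 0.32 (edgeR adjusted p = 0.133), and without si-NC 3 the adjusted p was 0.0308.

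The protein and thiol METTL genes, Mettl7a1 included and 7 of 12 tested, had a median of 0.13. Mettl9 was at 0.15 (edgeR adjusted p = 0.368), and Mettl7b, the least abundant, at 0.39 ± 0.37 (0.478). Of the 3 tested genes with no settled substrate, Mettl25 had the largest value, 0.37 ± 0.17 (0.158), with 4.16, 5.67 and 4.30 CPM in si-NC against 5.85, 5.75 and 6.65 in si-METTL3. Mettl26 was at 0.13 (0.578). Split by the known substrate, 3 of the 31 tested RNA members were called lower (9.68%, against 10.2% of all tested genes). None was called higher, and their median was -0.08. Of the 10 tested members with no known RNA substrate 1 was called higher (10.0%, against 8.67% of all tested genes). None was called lower, and their median was 0.13. Each share was near that of all genes in its own direction. Counted in both directions, each was below the 18.9% of all tested genes. The difference between these 2 sets was not tested.

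**Figure D3:**
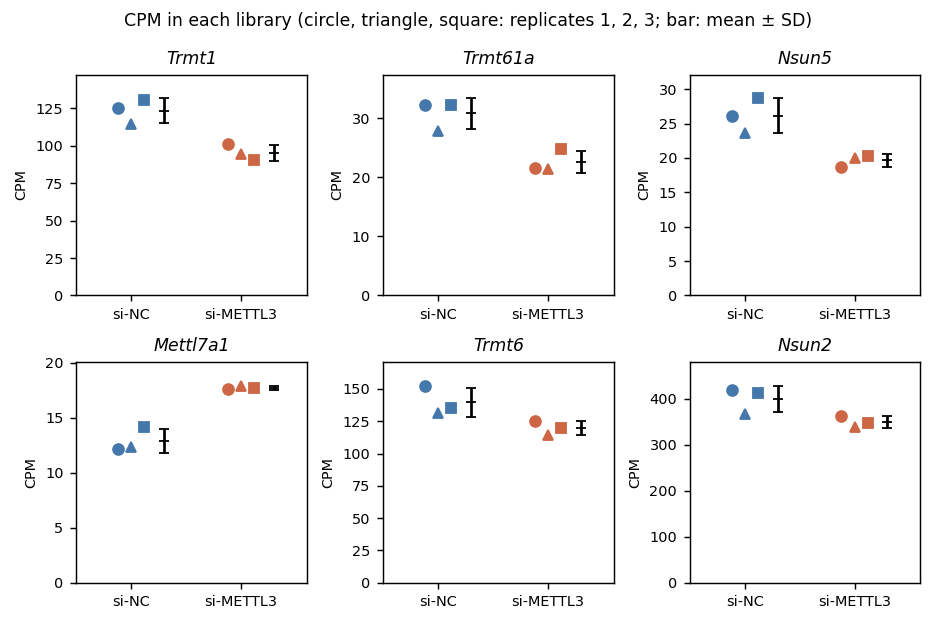
CPM (y, from 0) of 6 members in each library, si-NC in blue and si-METTL3 in orange, with circle, triangle and square for replicates 1, 2 and 3 and a bar for mean ± SD. Mettl7a1 is at 12.1 to 14.1 CPM in si-NC and 17.6 to 17.9 in si-METTL3, and the other 5 genes are lower in si-METTL3 with no overlap.

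Over all 41 members, 15 had CPM values that did not overlap between the groups (12 lower, 3 higher), or 36.6% against 41.5% of all tested genes (21.3% lower, 20.2% higher). The number of calls moved with single libraries. When 1 library at a time was left out, the number of called members was 0 without si-NC 1, 11 without si-NC 2, 1 without si-NC 3 (Mettl7a1), 1 without si-METTL3 1 (Trmt1), and 0 without si-METTL3 2 or si-METTL3 3. The 11 were Trmt1, Trmt61a, Nsun5, Mettl7a1, Mettl17, Mettl2, Mettl25, Nsun2, Trmt112, Trmt12 and Trmt6, 26.2% of the 42 then tested, against 36.8% of all genes. Over the 6 fits the edgeR adjusted p ran from 0.0065 to 0.0973 for Trmt1, 0.0104 to 0.114 for Trmt61a, 0.0113 to 0.115 for Nsun5 and 0.0223 to 0.0995 for Mettl7a1, and no sign changed in these 4.

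In the members with the widest spread, si-NC 2 was often the highest control. An SE over 0.2 was seen in 8 members, and in 6 of these (Nsun3, Trmt11, Trmt13, Mettl4, Trmt10c and Nsun6) si-NC 2 was the highest control, while in Mettl7b and Mettl15 it was si-NC 3. Trmt11, a guanosine N2-methyltransferase that works with TRMT112, was at 7.15, 15.8 and 7.52 CPM in si-NC against 9.48, 9.001 and 11.2 in si-METTL3. Mettl4, which methylates a spliceosomal RNA, was at 14.1, 24.0 and 11.99 CPM in si-NC against 19.2, 18.2 and 12.8 in si-METTL3. In both, si-NC 2 exceeded every other library, and the knockdown libraries lay between the controls. Over all 41 members si-NC 2 was the highest control in 14. The median SE was 0.11 over the members and 0.12 over all tested genes.

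**Figure D4:**
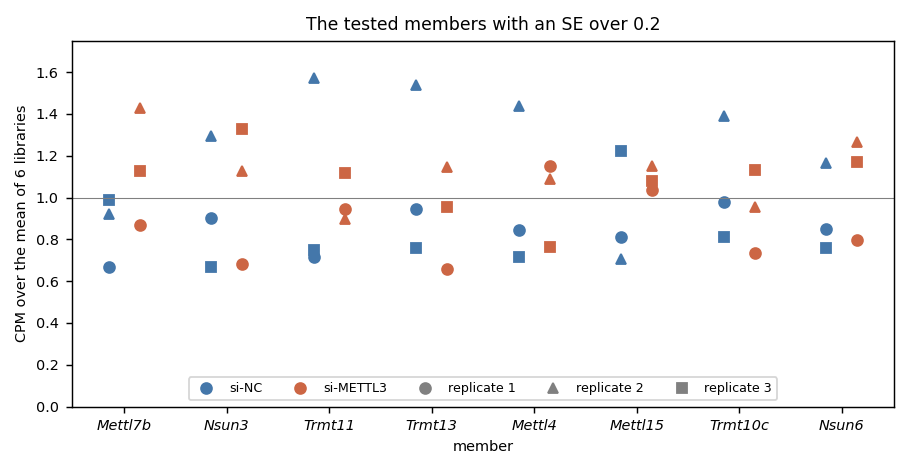
CPM over the mean of the 6 libraries (y, no unit) for all 8 members with an SE over 0.2, in order of SE, si-NC in blue and si-METTL3 in orange, and circle, triangle and square for replicates 1, 2 and 3. The blue triangle, si-NC 2, is the highest control in 6, and the blue square, si-NC 3, in Mettl7b and Mettl15.

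Other enzymes of RNA modification and their partners gave a setting for these values. In a list of 64 such genes, picked with earlier results known, 63 were tested. Of these, 12 were called lower and 1 higher, 20.6% in all against 18.9% of all genes (10.2% lower, 8.67% higher). Its calls leaned lower more than those of all genes, a difference that was not tested. The median log2 fold change of the list was -0.15. Cmtr1, which methylates the ribose next to the messenger cap, was at 218, 189 and 208 CPM in si-NC against 135, 119 and 127 in si-METTL3. It fell by 0.69 ± 0.08 on the log2 scale (SE, edgeR adjusted p = 0.00335). Dimt1, which dimethylates adenosines of the small-subunit ribosomal RNA, was at 41.7, 40.4 and 41.8 CPM in si-NC against 27.5, 25.6 and 28.4 in si-METTL3, and fell by 0.60 ± 0.08 (edgeR adjusted p = 0.00497). Both stayed below the threshold in all 6 fits that left out 1 library, and none of the 4 called members did.

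Wdr4, the partner that METTL1 needs, went from 108, 94.3 and 106 CPM in si-NC to 75.8, 70.0 and 71.4 in si-METTL3. It fell by 0.50 ± 0.08 (edgeR adjusted p = 0.00865) and was called in 4 of those 6 fits, while Mettl1 itself was at -0.08 ± 0.10 (0.603). The other genes called lower were Adat3 (-0.56), Bcdin3d (-0.52), Cmtr2 (-0.52), Spout1 (-0.43), Trub2 (-0.41), Qtrt1 (-0.41), Nop2 (-0.39), Alyref (-0.38) and Pus7 (-0.27). They include deaminase, pseudouridine and queuosine enzymes of transfer RNA (Adat3, Trub2 and Pus7, Qtrt1), a second cap enzyme (Cmtr2), the NSUN-family ribosomal RNA enzyme Nop2 and the 5-methylcytosine reader Alyref. Wdr6, a partner in ribose methylation of transfer RNA, was the one called higher (0.46). With si-NC 3 as the only control Cmtr2, Pus7, Qtrt1, Spout1, Trub2 and Wdr6 did not pass, at edgeR adjusted p values from 0.0502 (Trub2) to 0.154 (Pus7), and the other 7 of the 13 did.

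Count and FPKM together give the mean transcript length that the authors' software assigned to a gene in each library. It could be computed for 38 members, 36 of them with several annotated transcripts. In 704 genes with 1 annotated transcript it differed from the annotated length by a median of 0.0192%. In 2 of the 36 the groups did not overlap and differed by at least 0.1 on the log2 scale, against 5.03% of 9131 genes. Nsun2 went from 2686, 2625 and 2589 nt in si-NC to 2494, 2405 and 2392 nt in si-METTL3. Nsun6 went from 1611, 1749 and 1474 nt to 1346, 1407 and 1193 nt. In both every knockdown library was shorter. Groups that do not overlap always give an exact permutation p of 0.1 (two-sided), the smallest that 3 against 3 allows. That value therefore adds nothing to the choice of these 2 genes.

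For Nsun2 the shorter length means that its FPKM moved less than its counts, with log2 ratios of -0.06 and -0.20. Trmt61a was assigned 2429, 2428 and 2300 nt in si-NC against 2431, 2058 and 1874 nt in si-METTL3. These overlapped (exact permutation p = 0.4), and this gene is the called member that missed the threshold on FPKM. Mettl17 was assigned 1034 nt in si-METTL3 3 and 1466 to 1591 nt in the other libraries.

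**Figure D5:**
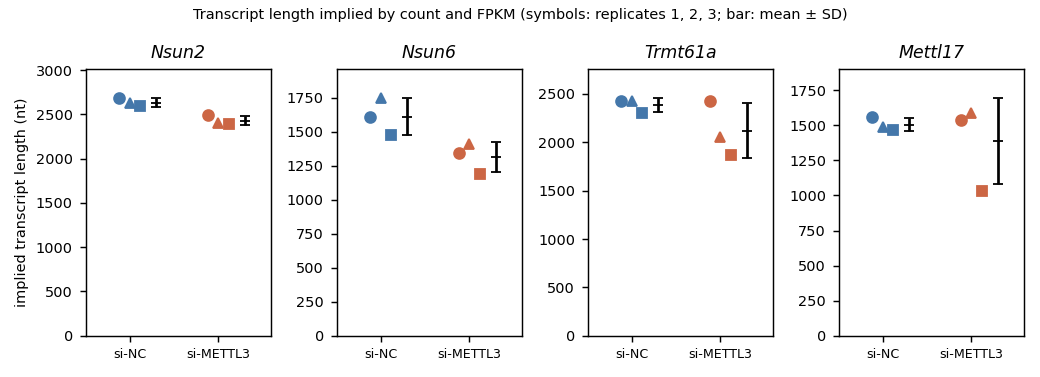
Mean transcript length implied by count and FPKM (y, nt, from 0) in each library for 4 members, si-NC in blue and si-METTL3 in orange, with symbols for replicates 1, 2 and 3 and a bar for mean ± SD. Nsun2 (2589 to 2686 nt, then 2392 to 2494 nt) and Nsun6 do not overlap between groups, Trmt61a and Mettl17 do.

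The lncRNA table holds 43 transcripts that belong to 20 of the members, all annotated as processed transcripts without a coding frame. Of these, 11 had no count and 14, from 10 members, could be tested. None was called by edgeR or DESeq2, against 0.733% of the 5728 transcripts tested, and 1 had an unadjusted edgeR p under 0.05, against 15.4%. Their median log2 fold change was 0.23, and that of all tested transcripts 0.01. The one was Nsun2-203 (539 nt, chromosome 13, 69612603 to 69619593, plus strand, GRCm38). Its CPM, scaled within the lncRNA table, was 45.2, 49.1 and 75.5 in si-NC against 88.1, 99.2 and 101 in si-METTL3. The groups did not overlap, with si-NC 3 the nearest control, and the log2 fold change of 0.76 ± 0.24 did not pass (edgeR adjusted p = 0.2002).

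The start regions of the members were searched for short motifs, which their choice by name did not use. RefSeq promoters (GRCm38.p6, 250 bases before to 50 after the start) were found for 39 members, 47 promoters in all. The letters CCGGAAGT on either strand, a core bound by ETS-family factors, occurred in 11 of the 43 promoters of tested members (25.6%), against 7.62% of the 13168 promoters of tested genes and 3.89% of all 32851. This motif was picked after values were seen, and its share has no test. The windows are shown for each of the 10 genes, on the gene's strand with 10 bases on each side, and capitals mark the match.
Mettl4: gccctcgtcgCCGGAAGTgtccgcatcg
Mettl5: gcgtgtcggtACTTCCGGcactgcgggg
Mettl6: aggccgctgcACTTCCGGcattggggag
Mettl9: caagacaagcCCGGAAGTcctgcagacc
Nsun2: cgggatgcagCCGGAAGTgcagcgtgcg
Nsun3: ctcgcaggacCCGGAAGTatggcgtttc
Nsun6: gcatcgagtgCCGGAAGTgacgaaccca
Trmt10b: tgatcaggaaCCGGAAGTggctttgggg
Trmt10c: gtggtgccggACTTCCGGcggccgcggc
Trmt61a: tcaaaaagcaCCGGAAGTgctacggccg
Of these 10 matches 7 read forward and 3 on the other strand, and their first base lay between 105 bases before the start (Mettl9) and base 9 after it (Nsun2). The 10 genes did not move together: 5 had a log2 fold change below 0 and 5 above, and only Trmt61a was called.

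The promoter of Trmt61a is shown whole because it is a called member with such a match. Among the called members only Trmt61a and Mettl7a1 were matched to a promoter, and Trmt1 and Nsun5 were not searched. It is chr12:111677855-111678154 on the plus strand, and capitals mark, in order, the cyclic AMP response element TGACGTCA, the ETS core CCGGAAGT and the E-box CACGTG, each searched on both strands.
Trmt61a: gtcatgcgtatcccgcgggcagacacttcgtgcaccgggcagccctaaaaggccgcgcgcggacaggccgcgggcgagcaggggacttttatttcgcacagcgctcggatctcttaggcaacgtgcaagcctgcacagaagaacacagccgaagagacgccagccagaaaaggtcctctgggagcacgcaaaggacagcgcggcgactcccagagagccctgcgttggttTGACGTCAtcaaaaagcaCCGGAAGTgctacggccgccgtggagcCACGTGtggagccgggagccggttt
Among promoters of tested genes 2.95% held TGACGTCA and 9.61% held CACGTG, and among those of tested members 3 held each (6.98%). In Mettl7a1, the member called higher, none of the 3 was found in the same window. The letters GGACT, a common form of the m6A motif, occurred at a median of 1.11 per kb in the longest coding transcripts of tested members and 1.05 per kb in those of all tested genes. Trmt1 held 3.12 per kb, and Mettl7a1, Nsun5 and Trmt61a held 0.514, 0.446 and 0.411 per kb. The data give RNA levels alone, so methylation of these transcripts was not measured.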

How the data were processed

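The authors deposited an mRNA table and a lncRNA table that give, per the file headers, whole-number counts and FPKM of each library. The submitters' processing notes name RSEM, StringTie, Bowtie2 and fastp and the build mm9, without roles or versions. The deposited log2 fold changes are ratios of mean FPKM, and the test behind the deposited p-values is not given. The members follow a rule on gene names, but that rule and the gene lists were chosen with earlier results of these data known.

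Counts of each table were tested whole with edgeR 4.0.16 in R 4.3.3 (TMM, filterByExpr, quasi-likelihood test, Benjamini-Hochberg threshold 0.05). SE is the log2 fold change over the root of the F statistic. CPM of members and other named genes uses TMM-scaled totals, and CPM of marker sums uses the unscaled totals. Totals ran from 22146057 to 37698956 counts in the mRNA table and from 1982088 to 3111037 in the lncRNA table. Named genes are all called members, the 5 highest by FPKM, the highest of each role, the m6A and m6Am writers, those beyond 0.4 on the log2 scale, members below the filter with their counts, and called genes of the second list; others are given after their values were seen. GENCODE M21 (GRCm38) gave names, positions, exon overlaps and transcripts, RefSeq (GRCm38.p6) promoters, and no coordinate was converted. Implied length is count over FPKM, scaled in each library on genes with 1 transcript, for genes of at least 100 counts and 1 FPKM. Alternatives were DESeq2 1.42.0, its size factors, other filters, limma 3.58.1 on log2(FPKM + 1) and log2(FPKM + 0.1), a length correction, a replicate block, leaving out each library and, added after the data were seen, si-NC 3 as the only control. The tests were tried on simulated counts. Same-numbered libraries did not deviate together, so the numbers were not taken as pairs. Whether such libraries shared a culture or a preparation is not given, and the correlations cannot decide it. Figures were drawn with matplotlib 3.10.9.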

Additional observations from a re-analysis of the deposited data

How the results depend on the processing

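The number of called members was 4 in the main analysis and 0 to 11 when 1 library was left out, with 0 to 9 lower and 0 to 2 higher. The second list gave 13 calls, and 2 to 25 with 1 library left out. Over all genes the calls ran from 665 to 4917 in those fits. With 1 library left out an arm holds 2 samples, and a lone si-NC 3 was assumed to vary like the other group. With the replicate number as a block, 0 members were called (0 lower, 0 higher), 7 of the second list, and 1273 of all genes (9.73%). The correlations of same-numbered deviations were 0.04, 0.18 and -0.28, so the numbers were not taken as pairs. With si-NC 3 as the only control 0 members were called higher and 4 lower (Mettl2, Nsun5, Trmt1 and Trmt112), and the median log2 fold change was -0.08 over the 42 members then tested. Trmt1 and Nsun5 stayed called in 8 of 9 other alternatives, Mettl7a1 in 7 and Trmt61a in 5. The calls in the lncRNA table stayed at 0 and Mettl3 was called throughout. Against transcript length, the deviation of each library from the mean level had a slope of -0.12, 0.026 and -0.14 in si-NC 1 to 3. The slope was 0.046, 0.086 and 0.11 in si-METTL3 1 to 3 (log2 per doubling of length). With the length correction 5 members were called (4 lower, 1 higher), 12.2% against 17.0% of all genes.

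Signs changed in 17 of 41 members, none of them called, and 13 changed neither sign nor side under 15 alternatives. With si-NC 3 as the only control the log2 fold change became -0.17 for Mettl15, -0.15 for Mettl21a, -0.034 for Mettl26, -0.23 for Mettl8, -0.094 for Nsun4, 0.21 for Trmt10c, 0.39 for Trmt11, 0.27 for Trmt13 and -0.074 for Trmt2a. With the length correction it became 0.0015 for Mettl18, 0.047 for Mettl27, -0.068 for Mettl4, -0.093 for Trmt10a, 0.016 for Trmt11, -0.064 for Trmt44 and -0.020 for Zcchc4. Mettl4 was at -0.00022 with DESeq2 size factors, -0.0067 with DESeq2, -0.0035 without a filter, and -0.028 and -0.030 with limma at a pseudocount of 1 and 0.1. Under those limma settings Pcif1 was at 0.010 and 0.014 and Trmt11 at 0.0079 and 0.023, and with the replicate block Trmt11 was at 0.061. With 1 library left out the values ran from -0.071 to 0.086 for Mettl21a, -0.011 to 0.19 for Mettl26, -0.12 to 0.068 for Mettl27, -0.21 to 0.36 for Mettl4, -0.0088 to 0.25 for Mettl8, -0.11 to 0.40 for Nsun3, -0.036 to 0.084 for Nsun4, -0.14 to 0.089 for Pcif1, -0.011 to 0.092 for Trmt10a, -0.36 to 0.067 for Trmt10c, -0.24 to 0.43 for Trmt11, -0.46 to 0.10 for Trmt13, -0.029 to 0.080 for Trmt2a, -0.0094 to 0.14 for Trmt44 and -0.068 to 0.068 for Zcchc4. The cause was not tested. In simulated lncRNA counts (5728 transcripts, 50 changed at each fold) 38% of 4-fold changes were recovered.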

Other observations

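Trmt5, which makes N1-methylguanosine in transfer RNA, was assigned a mean transcript length of 954 nt in si-METTL3 3 and 1134 nt in si-NC 3, and 1469 to 1849 nt in the other libraries, with groups that overlapped. Mettl15-204, a processed transcript of Mettl15 in the lncRNA table, had 4, 0 and 13 counts in si-NC against 21, 18 and 20 in si-METTL3, with an edgeR adjusted p of 0.345.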
